A study of Mus musculus with 2 samples.

Results

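Endothelial cells of the regenerating mouse digit tip were compared according to whether they carried the tdTomato label of a Pdgfra-driven Cre line. The cells came from the Pdgfra library, in which 1612 of 5032 deposited cell barcodes had at least 500 genes, at most 10% mitochondrial UMIs (unique molecular identifiers, 1 per captured transcript) and at least 3000 UMIs. Of these, 414 passed an endothelial gate, a summed score of at least 5 UMIs per 10000 over Pecam1, Cdh5, Kdr, Egfl7, Esam and Emcn with the macrophage genes C1qa, C1qb and C1qc below 10 per 10000 in sum. Cells were chosen by their tdTomato level: 162 were labelled (at least 1600 UMIs per 1000000, CPM), 231 were unlabelled (below 800 CPM), and the 21 between were left out of the comparison. The series held 11023 barcodes in 2 libraries.

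Both libraries came from regenerating digit tips of mice aged 10 to 12 weeks, collected 14 days after amputation, and no uninjured tissue was analysed here. The Pdgfra library was from PdgfraCreERT;R26-LSL-TdT mice and the comparison library from Lmx1bCreERT2;R26-LSL-TdT mice, so the comparison line carries a reporter and an inducible Cre as well. In both lines a daily dose of 3 mg tamoxifen was injected over 4 days, and amputation followed 10 days later. Cells were freed with Liberase (280 µg/ml) and passed a 20 µm strainer, and no sort was described. There was 1 library per line, and the number of animals pooled into it was not given in the sources used here. The labelled and unlabelled cells share that 1 library, and cells are not replicates, so no difference below has a replicate check or a p-value. A gene's level in a group is its share of the group's summed UMIs in CPM, pairs of levels give the labelled group first, and intervals are exact 95% intervals that cover counting error only.

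PdgfraCreERT places a tamoxifen-dependent Cre recombinase under control of Pdgfra, which encodes a receptor for platelet-derived growth factor and is a standard marker of fibroblasts and other mesenchymal cells. Recombination removes a stop cassette at the Rosa26 locus, so the label persists in a cell and in its descendants whether or not Pdgfra is still transcribed. Endothelial cells line blood and lymphatic vessels and are marked by the junction proteins Pecam1 and Cdh5 and the VEGF receptor Kdr. Mural cells (pericytes and smooth muscle) wrap the same vessels, and fibrillar collagens are made mainly by mesenchymal cells, whose free RNA or attached fragments can enter a droplet that holds another cell.

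The endothelial name held for cells with a score of 20 or more and did not hold for the lowest scores. Levels of the 6 gate genes are set by the rule, so genes outside it were read. In the 305 cells at 20 or more, the receptor Tie1 had a UMI in 92.8% of cells and the tight-junction gene Cldn5 in 69.8%, against 13.8% and 11.3% of the 80 cells scoring 5 to 10. Endothelial genes outside the gate were abundant at the higher scores, with a median of 103 UMIs per 10000 in the 211 cells scoring 40 to 80. Among the 80 cells scoring 5 to 10 the median was 3.29 per 10000, Esam was detected in 90% but Pecam1 in 23.8% and Cdh5 in 17.5%, and 67 of the 80 held at least 5 UMIs per 10000 of 7 mural genes. Rgs5, a pericyte regulator of G-protein signalling, stood at 8508 CPM in those 80 cells against 789.7 CPM in the 305. The lowest-scoring cells thus carried a mural profile, with the junction molecule Esam as the most abundant of the 6 gate genes.

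Cells scoring 10 to 20 were a different small group. They numbered 29, of which 22 were labelled, 5 between and 2 unlabelled. Their median depth was 46274 UMIs against 12151 in the cells scoring 40 to 80, Col1a1, Col1a2 and Col3a1 together reached a median of 415 UMIs per 10000 against 18.3, 18 of the 29 had a Pdgfra UMI, and 10 of the 29 were among the barcodes with the highest Scrublet doublet scores. Of endothelial genes outside the gate they held a median of 26.4 UMIs per 10000, with Tie1 detected in 72.4% and Cldn5 in 65.5% of them. These 29 cells therefore combined endothelial and mesenchymal transcripts at high depth.

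**Figure D1:**
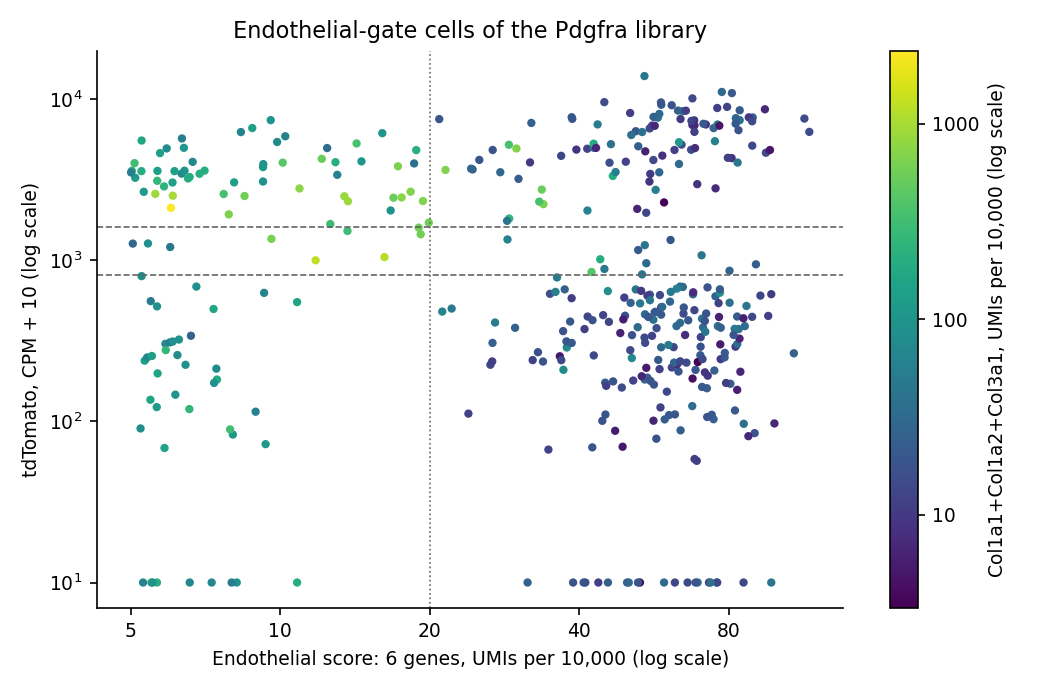
tdTomato (CPM + 10, log axis) against the endothelial score (UMIs per 10000 of the 6 gate genes, log axis) in 414 cells of the Pdgfra library, coloured by the summed level of Col1a1, Col1a2 and Col3a1. The dashed lines mark 800 and 1600 CPM and the dotted line a score of 20. Collagen-rich cells lie mostly to the left of 20, and the labelled and unlabelled clouds to its right are separated by a sparsely filled gap.

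Labelled cells were present in the well-scoring endothelium as a separate cloud. In the whole gate 39.1% of cells were labelled (162 of 414, interval 34.4% to 44.0%), and in the 305 cells with a score of 20 or more 33.8% were (103, interval 28.5% to 39.4%). The share was 54.1% in the 109 cells below 20 (59, interval 44.3% to 63.7%). The values nearest the threshold were 1586 and 1671 CPM on the 2 sides of 1600, 788.0 and 808.1 CPM on the sides of 800, and scores of 4.95 and 5.00 on the sides of 5. In the higher-scoring cells, the labelled had a median of 5402 CPM tdTomato (lowest 1749, highest 13921) and the unlabelled 272.2 CPM (lowest 0, highest 773.2). The thresholds fix that separation, so it is a description of how the cells were chosen.

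The Lmx1b library supplied endothelium from a line in which another gene drives Cre. None of its 601 endothelial cells with a score of 20 or more reached 1600 CPM, and 23 lay at 800 CPM or above. The exact 95% upper bound of the labelled share was 0.612%, and 3 cells would make 0.499%. Over its full gate 2 of 724 cells reached the threshold, both with a score under 20. Unlabelled endothelium of the Pdgfra library held a summed tdTomato level of 275.5 CPM at a score of 20 or more, and the Lmx1b endothelium 276.0 CPM. The first sum covers only cells below 800 CPM. The second covers all 601 cells, the 23 at 800 CPM or above among them, so these sums were not cut alike. Levels of tdTomato also differed between classes. Over all cells of a class, the Lmx1b library held 290.4 CPM in mesenchymal cells, 108.7 CPM in mural cells and 40.6 CPM in macrophages. The mesenchymal sum included 56 labelled cells of 914. Median cells of that library held 78.8, 54.6 and 23.2 CPM in these classes, and 239.8 CPM in endothelium with a score of 20 or more. Macrophages of the Pdgfra library held 450.5 CPM in sum, 8 labelled cells of 86 included, with a median of 136.9 CPM.

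Other classes of the Pdgfra library gave the context for that share. Of 571 mesenchymal cells (collagen sum of at least 50 per 10000, a Pdgfra UMI, endothelial score under 5) 81.6% were labelled, of 231 mural cells 38.1%, and of 86 macrophages 9.30% (8 cells). In the Lmx1b library the same definitions gave 6.13% of 914 mesenchymal cells, 0.968% of 310 mural cells and 0 of 87 macrophages. The 0 of 601 endothelial cells thus came from a library with few labelled cells in any of these classes. The transcript of the recombinase itself was near the floor in every class counted. The CreERT2 feature had 2 UMIs over the 414 endothelial cells (0.237 CPM), 1 in a labelled and 1 in an unlabelled cell. Mesenchymal cells had 30 UMIs (1.45 CPM), and mural cells had 0 although 38.1% of them were labelled. These counts are too low to tell which classes expressed the recombinase. At equal depth, after thinning each cell to 3000 UMIs, a Pdgfra UMI was seen in 2.62% of endothelial cells with a score of 20 or more (interval 1.14% to 5.10%) and in 2.33% of macrophages (0.283% to 8.15%), which do not normally express the gene. The endothelial share lay within the macrophage interval, and the summed Pdgfra levels were 16.1 and 11.6 CPM. The macrophage interval is wide because the cells are few. It cannot tell whether endothelium held more Pdgfra than macrophages or the same. In the mesenchymal cells, for which a Pdgfra UMI was part of the definition, the thinned share was 42.6%. Before thinning, the shares were 11.1% in endothelium and 8.14% in macrophages, with median depths of 11963 and 22404 UMIs. In the Lmx1b library the thinned Pdgfra shares were 1.83% of 601 such endothelial cells (interval 0.917% to 3.25%) and 0% of 87 macrophages (0% to 4.15%). These intervals also overlap.

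**Figure D2:**
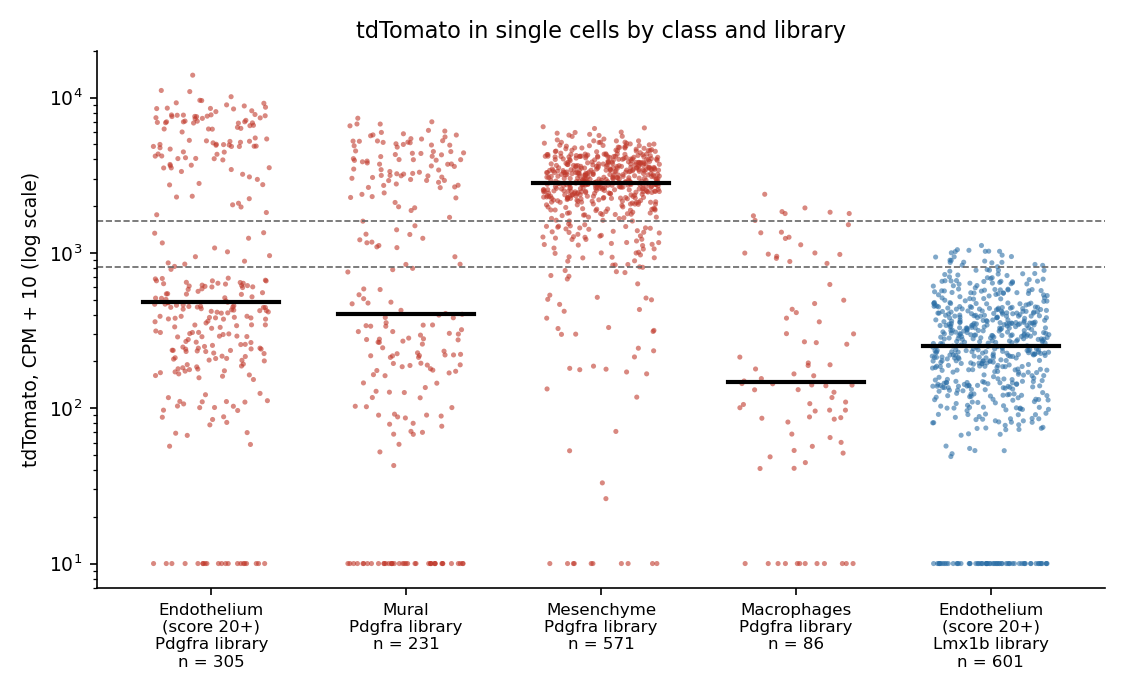
tdTomato (CPM + 10, log axis) in single cells of 4 classes of the Pdgfra library (red) and in endothelium of the Lmx1b library (blue); black bars are medians and dashed lines 800 and 1600 CPM. Endothelial and mural cells of the Pdgfra library fall into a low and a high cloud, and the 601 Lmx1b endothelial cells stay below 1600 CPM.

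Under the same threshold, tdTomato made up a larger share of the UMIs in labelled endothelium than in labelled mesenchyme. The labelled mesenchymal cells together held 3009 CPM tdTomato, and the 103 labelled endothelial cells with a score of 20 or more 4804 CPM, which is 160% of that level (interval 156% to 163%). Of the 103 cells 90 lay at or above the median labelled mesenchymal cell (3101 CPM), and 44 exceeded the highest of the 466 labelled mesenchymal cells (6478 CPM). In contrast, 23 fibroblast and collagen genes stood at a median of 18.5% of the labelled mesenchymal level in these endothelial cells (range 5.88% to 52.5%). tdTomato and the mesenchymal genes thus stood at unequal shares of the level in mesenchymal cells of the same library, although tdTomato was also the basis on which the cells were chosen. All these levels are shares of UMIs, and the mesenchymal class was the deeper. Its median was 29339 UMIs, against 11963 in endothelium with a score of 20 or more, labelled or not. The 466 labelled mesenchymal cells held 48213 tdTomato UMIs in sum. The 103 labelled endothelial cells held 2378812 UMIs of all genes, of which tdTomato made up the 4804 CPM. A larger share in shallower cells is therefore not a larger number per cell, and the number of tdTomato UMIs per cell was not tested.

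Over the whole gate, mesenchymal genes led the higher side of labelled cells and endothelial genes were among the lower. Of 8746 genes measured at 10 CPM or more, 742 were at least 1.5-fold higher in the labelled sum (8.48%) and 724 at least 1.5-fold lower (8.28%). Col1a1, the main chain of type I collagen, stood at 13727 CPM against 1036 CPM, a 13.3-fold difference (interval 12.8 to 13.7). Per cell, Col1a1 had medians of 1295 (labelled) and 999.5 CPM (unlabelled) and maxima of 141180 and 11564 CPM, so the groups overlapped over most of their range and the sums differed mainly through a tail of labelled cells. The median fold of all genes was -0.11 on the log2 scale. Relative to it, 918 genes were higher and 394 lower, so that the higher share of called genes moved from 50.6% to 70.0% with the scaling.

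Genes of matrix, cartilage and bone were among the higher genes. The 15 genes that led the higher side were C1qtnf3, Fmod, Gpx3, Acan, Tnn, Lsp1, Mfap4, Omd, Svep1, Ogn, Spon1, Lum, Col1a1, Chad and Ltbp2. Lum, a collagen-binding proteoglycan, was 14.7-fold higher (2630 against 179.0 CPM), Fmod, its relative fibromodulin, 23.5-fold (1132 against 48.2 CPM), and Acan, the cartilage proteoglycan aggrecan, 24.0-fold (416.9 against 17.4 CPM). By list, 7 of 8 fibrillar collagens, 16 of 18 measured fibroblast genes, 8 of 8 cartilage genes and 7 of 8 bone-lineage genes were higher and none lower, with median log2 differences of 3.01, 3.11, 3.17 and 2.82 beside -0.11 over all measured genes.

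Endothelial and arterial genes stood on the lower side in the whole-gate sums. Of 22 endothelial genes outside the gate 16 were lower and 0 higher (median log2 -0.72), and of 13 arterial genes 10 were lower and Fbln5, a fibulin of elastic fibres, was higher (median -0.85). Sox17, an arterial transcription factor, stood at 93.2 against 220.5 CPM (2.37-fold lower, interval 2.09 to 2.68), and Cxcl12, a chemokine of arterial endothelium and stroma, at 262.2 against 856.8 CPM (3.27-fold lower, interval 3.05 to 3.50). The other genes that led this side were Igfbp3, St8sia6, Sema3g, Dbndd2, Magix, Cd74, Mctp1, Ly6a, Rbp7 and the haemoglobin genes Hba-a1, Hba-a2, Hbb-bs and Hbb-bt. The haemoglobin difference rested on a few cells: 83.1% of the unlabelled Hbb-bs UMIs came from 1 cell at 317265 CPM, while median cells held 44.1 CPM labelled and 77.9 CPM unlabelled. Below a score of 20 the endothelial direction was the opposite. Of 21 measured genes outside the gate 21 were higher in 59 labelled than in 41 unlabelled cells (median log2 3.48). There 1992 of all 8640 genes were higher, and of 10 arterial genes 5 were higher and 4 lower. At 20 or more, 2 of 22 endothelial genes were lower and 0 higher (median -0.31). The part of this mix of scores in the whole-gate values was not tested.

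Low-scoring cells supplied most of the collagen in the labelled sum. The 22 labelled cells scoring 10 to 20 held 25.9% of all labelled UMIs and 49.1% of the labelled Col1a1, Col1a2 and Col3a1 UMIs, and the 37 scoring 5 to 10 a further 30.7% of the collagen. The 103 labelled cells scoring 20 or more held 54.2% of the UMIs and 20.2% of the collagen. Of the 162 labelled cells 19 had a Scrublet score among the highest, and of the 231 unlabelled cells 1. A Pdgfra UMI was seen in 21.6% of labelled against 8.66% of unlabelled cells, and mural genes at 5 per 10000 or more in 34.6% against 18.6%. Cells with these markers thus made up a larger share of the labelled group in the gate as a whole. Summed mural levels did not differ likewise, with Rgs5 at 2309 against 2247 CPM. Below a score of 20 the mural share was 69.5% of labelled against 92.7% of unlabelled cells. The same comparison was repeated in nested sets with fewer such cells.

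With the score raised to 20, collagen and fibroblast genes were still higher in labelled cells, cartilage and bone genes less so, and mural genes more so than in the whole gate. Of 8590 genes, 519 were at least 1.5-fold higher in the 103 labelled cells (6.04%) and 376 lower than in the 190 unlabelled cells (4.38%). Fibrillar collagens were higher in 7 of 8 cases (median log2 2.34) and fibroblast genes in 16 of 17 (2.81), beside a median of -0.05 over all genes. Of 4 measured cartilage genes 2 were higher (1.01) and of 5 bone-lineage genes 2 (0.14). Mural genes were higher in 12 of 13 cases (3.19), against 2 of 14 (0.13) in the whole gate. Yet the median cell held 18.5 collagen UMIs per 10000 when labelled and 18.3 when unlabelled. The 90th percentiles were 65.6 and 44.1 and the maxima 675 and 99.3, so the distributions coincided in their lower part and parted in the upper tail.

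Mural genes showed the same concentration in few cells. Rgs5 reached 1412 against 113.1 CPM at a score of 20 or more (12.5-fold, interval 11.1 to 14.1), and 83.6% of its labelled UMIs came from 3 of 103 cells. Acta2, smooth-muscle actin, was 13.5-fold higher with 84.8% in 3 cells, and Notch3, the mural Notch receptor, 20.3-fold higher with 80.3% in 3 cells. Of the labelled cells 15 of 103 passed the mural level of 5 per 10000, against 5 of 190 unlabelled, and 11 against 1 had a high Scrublet score. For Col1a1 the 3 highest cells held 53.0% of the labelled UMIs. Without each gene's own 3 highest labelled cells, Rgs5 was 2.33-fold and Col1a1 3.34-fold higher, beside 12.5-fold and 6.50-fold with them, so these differences were concentrated in few cells and did not vanish without them.

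Genes of the endothelial to mesenchymal transition were also higher at this score, 7 of 15 and none lower, with a list median of 0.42, beside 6.04% of all genes higher. In the same labelled cells the fibroblast and collagen genes stood at a median of 18.5% of the labelled mesenchymal level, against 2.33% in unlabelled cells, and the part of that RNA in the transition genes was not tested. Twist1, a mesenchymal transcription factor, stood at 66.4 against 10.7 CPM, its fellow regulator Snai2 at 47.9 against 21.8 CPM and Zeb2 at 107.2 against 33.6 CPM. On the lower side, 9 of 14 arterial genes were lower and 1 higher (median -0.59). Igfbp3 stood at 353.5 against 1129 CPM (3.19-fold lower, interval 2.96 to 3.45), Cxcl12 at 333.8 against 999.6 CPM and Bmp2, a bone morphogenetic protein, at 65.6 against 138.8 CPM. The 3 highest unlabelled cells held 34.7% of the Igfbp3 and 28.4% of the Cxcl12 UMIs, but 63.2% for Gja5 and 55.6% for Cxcr4. Without each gene's own 3 highest cells, Igfbp3 was 2.19-fold and Cxcl12 2.25-fold lower, whereas Sema3g (1.41-fold), Dll4 (1.25-fold) and Bmx (1.24-fold) were less than 1.5-fold lower and Gja4 was 1.08-fold higher.

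A strict set left out cells with a Pdgfra UMI, cells whose summed Col1a1, Col1a2 and Col3a1 exceeded 20.8 UMIs per 10000 (the median of unlabelled cells in the gate) and cells with the highest Scrublet scores. It held 165 cells, each with a score of 20 or more, of which 57 were labelled and 107 unlabelled, a labelled share of 34.5% (interval 27.3% to 42.3%). That share lay inside the counting interval of the share at a score of 20 or more. Their tdTomato level was 5552 CPM, or 185% of labelled mesenchyme (interval 180% to 189%), while the 23 fibroblast and collagen genes fell to a median of 1.15% of the mesenchymal level, beside 1.61% in the unlabelled cells. Of the 57 labelled cells 51 lay at or above the median labelled mesenchymal cell for tdTomato and 25 above the highest. By its choice the set held cells with a tdTomato share of UMIs above, and a collagen share far below, those of labelled mesenchyme. Mesenchymal cells were deeper, so these shares are not numbers of UMIs per cell. The collagen and Pdgfra values are fixed by these limits and the tdTomato values by the choice of cells, whereas the other fibroblast genes were not used, although mesenchymal cells make them together with collagen. Of those, Mest had the highest share, 39.5% in labelled and 58.3% in unlabelled cells.

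**Figure D3:**
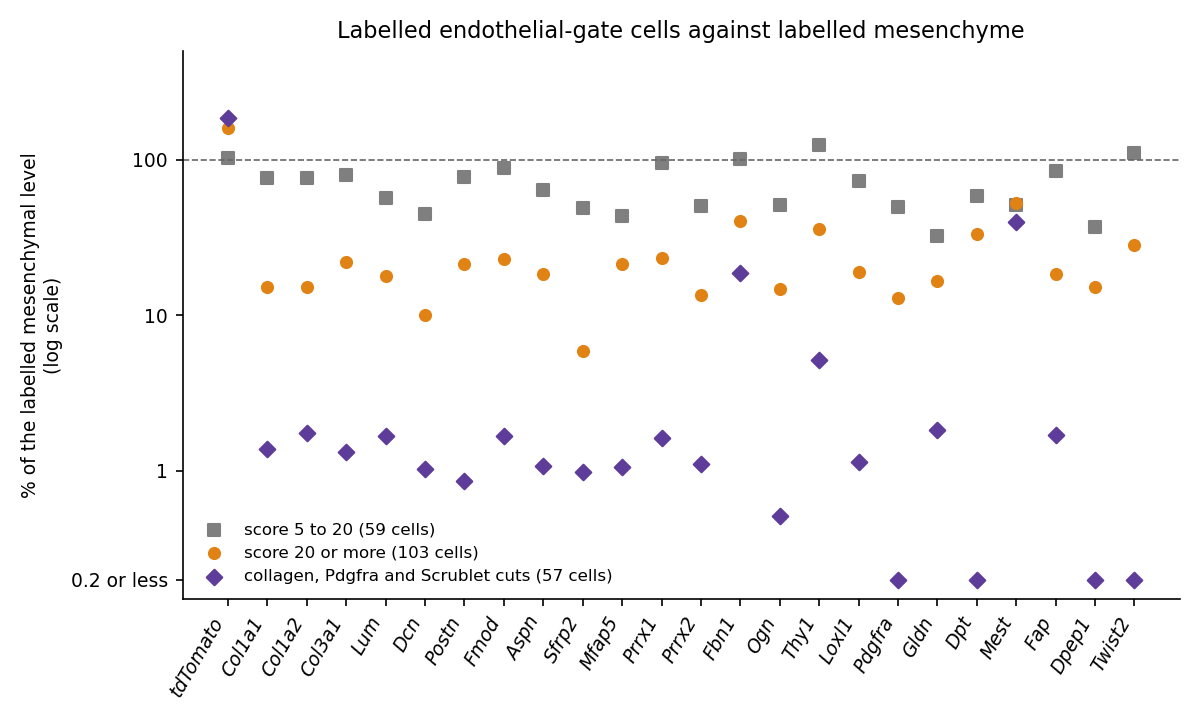
Level of tdTomato and of 23 fibroblast and collagen genes in labelled endothelial-gate cells, as a percent of the level in labelled mesenchymal cells (log axis, genes ordered by mesenchymal level after tdTomato), for 59 cells with a score of 5 to 20, 103 with 20 or more and 57 in the strict set. tdTomato stays at or above 100% in each set, while the mesenchymal genes fall from a median of 64.1% to 18.5% and to 1.15%; Pdgfra and collagen were themselves limited.

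In this set the pan-endothelial genes stood at like levels on both sides of the label. Of 8335 measured genes 320 were at least 1.5-fold higher in labelled cells (3.84%) and 574 lower (6.89%). None of 22 endothelial genes outside the gate was past 1.5-fold in either direction, with summed levels of 10474 CPM labelled and 10503 CPM unlabelled. Tie1, a receptor of the angiopoietin system, stood at 405.1 against 465.4 CPM, and Plvap, the diaphragm protein of fenestrated capillaries, at 1569 against 1380 CPM. Collagen was bounded by the choice of cells: Col1a1 stood at 443.9 against 514.8 CPM, and of 9 measured fibroblast genes 0 were higher and 3 lower (median log2 -0.37, beside 6.89% of all genes lower). Mural genes summed to 510.5 and 521.0 CPM. Mural genes reached 5 per 10000 in 4 of 57 labelled and 2 of 107 unlabelled cells, and macrophage genes summed to 128 and 102 CPM. The part of these few cells in the differences below was not tested.

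Arterial genes stood lower on the labelled side of this set. Of 14 measured 8 were at least 1.5-fold lower and none higher, with a median log2 difference of -0.71 beside -0.04 over all genes and a background of 6.89% lower. Gja4 (connexin 37, an arterial gap-junction protein) stood at 64.3 against 192.4 CPM, 2.99-fold lower (interval 2.35 to 3.84). Sema3g, an arterial semaphorin, stood at 23.2 against 79.0 CPM, 3.40-fold lower (2.29 to 5.21), and Cxcl12 at 333.9 against 867.3 CPM, 2.60-fold lower (2.34 to 2.89). Dll4, the arterial and tip-cell Notch ligand, was 1.76-fold lower, Efnb2 1.54-fold, Unc5b 2.42-fold and Cxcr4 2.38-fold. Gja5 (connexin 40) had 2 against 42 UMIs, in 2 and 9 cells, a 14.1-fold lower level (interval 3.67 to 120). Sox17, Bmx, Jag1, Stmn2, Hey1 and Fbln5 were less than 1.5-fold lower. In the larger set with a score of 20 or more, Gja4 stood at 163.9 against 204.6 CPM, 1.25-fold lower and short of 1.5-fold, and Sema3g at 42.5 against 85.5 CPM, 2.01-fold lower.

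Shares of positive cells behind the lower arterial sums depended on depth. Cxcl12 had a UMI in 63.2% of labelled and 54.2% of unlabelled cells, Gja4 in 29.8% and 34.6%, and Sema3g in 24.6% and 27.1%, with labelled cells the deeper (median 18391 against 14438 UMIs). After thinning to 3000 UMIs the shares were 35.1% and 36.4% for Cxcl12, 12.3% and 20.6% for Gja4, and 1.75% and 14.0% for Sema3g. The 90th percentiles of Cxcl12 were 1086 (labelled) and 3404 CPM (unlabelled), and the maxima 2482 and 7426 CPM. For Cxcl12 the highest-expressing cells were thus unlabelled, and the groups overlapped below them, while for Gja4 the maxima were close (2244 and 2394 CPM). The 3 highest unlabelled cells held 43.5% of the Gja4 UMIs, 43.4% of Sema3g and 38.3% of Cxcl12. Without each gene's own 3 highest cells, an alternative chosen after seeing the data that moves ratios toward 1 by construction, Gja4 was 1.80-fold, Sema3g 2.09-fold and Cxcl12 1.70-fold lower. Unc5b (1.75-fold) and Gja5 (3.89-fold, from 2 labelled UMIs) also stayed past 1.5-fold lower, whereas Dll4 (1.35-fold) and Efnb2 (1.32-fold) did not. Cxcr4 had 69.6% of its UMIs in 3 cells and was 1.31-fold higher in labelled cells without them. A stricter cell filter (1000 genes, 5% mitochondrial UMIs), which left 10 labelled and 18 unlabelled cells, turned the direction of Gja4 (log2 0.92), Cxcl12 (0.76) and Sema3g (0.21).

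Igfbp3, which binds insulin-like growth factors, led the lower side. Its level was 312.2 against 1326 CPM, 4.25-fold lower (interval 3.82 to 4.73). Its share of positive cells was 71.9% and 64.5%, medians were 149.8 and 174.3 CPM, and 90th percentiles 875.2 and 2983 CPM, so the upper range differed more than the middle. The other genes that led the lower side were Kcnn4, a calcium-activated potassium channel (8.52 against 36.9 CPM, in 10.5% and 27.1% of cells), Gja1 (connexin 43, 64.3 against 147.2 CPM), Ankrd9, Atp13a3, Fads3 and Nptx1. All 10 stayed past 1.5-fold without their own 3 highest cells, and for 9 the interval stayed below 1, Nptx1 being the exception. Among sprouting genes 5 of 14 were lower, beside 6.89% of all genes, and none higher, including the apelin ligand Apln (94.5 against 161.2 CPM), the urokinase receptor Plaur (21.7 against 55.6 CPM) and the potassium-channel subunit Kcne3 (9.30 against 28.1 CPM).

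Iigp1 led the higher side, followed by Fmo2, Ifit3, Slc39a8, Ifit1, Rasd1, Zfp36, Irgm1, Phlda1 and Slx1b. Iigp1, an interferon-inducible GTPase, stood at 147.2 against 42.1 CPM (3.49-fold, interval 2.68 to 4.59) and had a UMI in 50.9% of labelled and 29.0% of unlabelled cells. Irgm1, a GTPase of the same family, stood at 56.6 against 22.9 CPM (2.47-fold, 1.68 to 3.68) with a UMI in 59.6% and 24.3% of cells. Labelled cells were deeper (median 18391 against 14438 UMIs), but after thinning the shares were still 24.6% and 7.48% for Irgm1, and 24.6% and 10.3% for Iigp1. At a score of 20 or more Iigp1 was 2.25-fold and Irgm1 1.75-fold higher. Both genes were thus more widely detected as well as higher in sum, and without their own 3 highest cells Iigp1 was 2.18-fold and Irgm1 2.04-fold higher (intervals 1.62 to 2.95 and 1.35 to 3.11).

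Of 9 measured interferon and antigen-presentation genes 2 were higher, beside 3.84% of all genes, Ifit1 (32.5 against 10.9 CPM) and Ifit3 (20.9 against 5.20 CPM), with a list median of 0.45, while the class I genes H2-K1, H2-D1 and B2m were less than 1.5-fold apart. Of 10 inflammation and adhesion genes 5 were higher and 1 lower (median 0.56): Selp, the P-selectin that captures leukocytes, stood at 281.2 against 146.1 CPM, Irf1 at 141.0 against 85.8 CPM, Cxcl1 at 38.0 against 20.3 CPM, Tnfaip3 at 15.5 against 9.88 CPM and Ccl2 at 28.7 against 7.28 CPM, while Vcam1 was lower at 8.52 against 18.7 CPM. The inflammatory values rested on few cells. Ccl2 was found in 5 of 57 labelled cells with 86.5% of its UMIs in 1 of them, and 70.8% of the Selp UMIs came from 3 cells. Without each gene's own 3 highest labelled cells Selp was 1.59-fold lower, Ccl2 4.16-fold lower and Cxcl1 1.03-fold lower on the labelled side, and Irf1 and Tnfaip3 were 1.23-fold and 1.09-fold higher. None of the 5 then stayed past 1.5-fold in the higher direction. The background of genes higher in this set was 3.84%.

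Immediate-early genes, which tissue dissociation also switches on, stood on the same side. Of 18 on the dissociation list 5 were higher, beside 3.84% of all genes, and none lower (median log2 0.27). The 5 were Zfp36 (346.3 against 178.9 CPM), Egr1 (416.8 against 238.7 CPM), Junb (1023 against 642.2 CPM), Atf3 (227.8 against 141.4 CPM) and Ier3 (564.0 against 345.8 CPM). Fos was 1.37-fold and Jun 1.16-fold higher, and the heat-shock gene Hspa1a 1.03-fold. The part of the dissociation response in the higher inflammatory genes was not tested. Without each gene's own 3 highest labelled cells, 7 of the 10 genes that led the higher side stayed past 1.5-fold. Fmo2, Slc39a8 and Zfp36 did not, at 1.39-fold, 1.08-fold and 1.38-fold. The interval stayed above 1 for 6 of the 10, while those of Ifit3 (0.883 to 5.55) and Ifit1 (0.966 to 3.47) held 1, as did those of Fmo2 and Slc39a8.

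**Figure D4:**
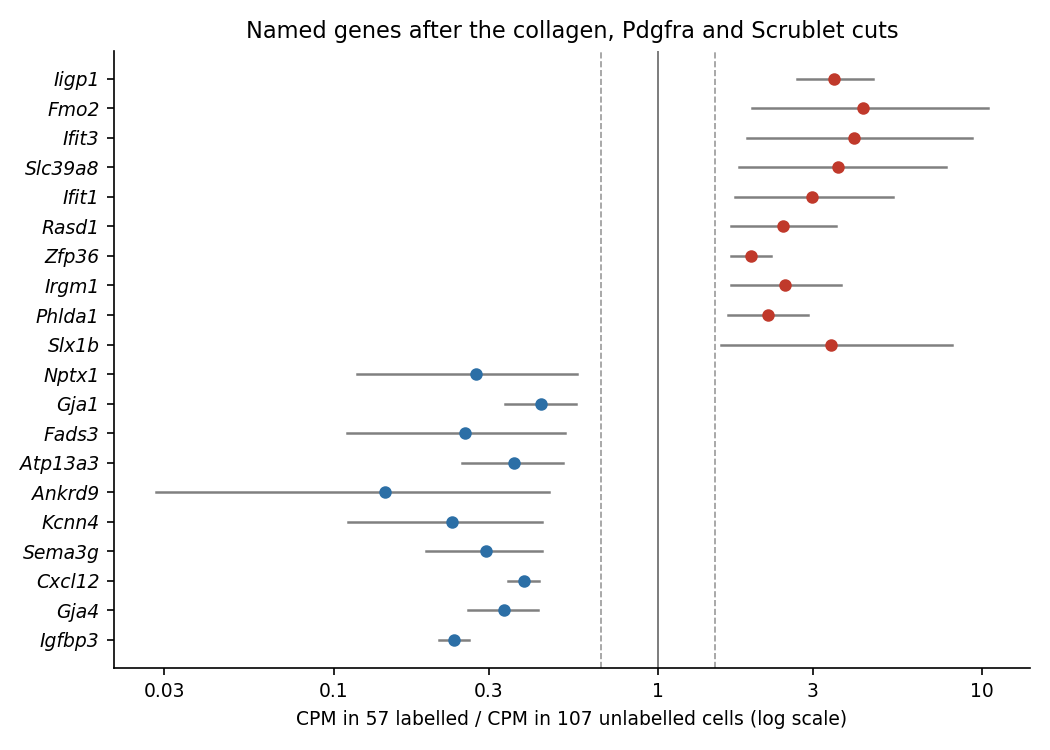
Ratio of summed CPM in 57 labelled to 107 unlabelled endothelial cells of the strict set (log axis), for the 10 genes that led each direction, with exact 95% intervals of the ratio of 2 counts. Dashed lines mark 1.5-fold. The intervals show UMI counting alone and lie beyond 1.5-fold because the genes were ranked on them.

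Labelled cells occurred among the positive cells of each capillary, arterial, venous and lymphatic gene counted. Among cells of the strict set with a UMI of a given capillary gene, 34.5% to 41.0% were labelled over 6 genes, and with a venous gene 27.3% to 43.8% over 12 genes. With an arterial gene the range was 18.2% to 41.5% over 14 genes (median 33.2%), against 34.5% of the set as a whole. Cells with Gpihbp1, the capillary anchor of lipoprotein lipase, were labelled in 46 of 122 cases (37.7%, interval 29.1% to 46.9%) and cells with Gja4 in 17 of 54 (31.5%, interval 19.5% to 45.6%). Over 6 genes of the lymphatic list the range was 16.7% to 37.5% (median 27.9%). The highest was Prox1, the lymphatic transcription factor, with 9 of 24 cells labelled, while Lyve1 had 3 of 15 and Pdpn 2 of 12. These intervals overlap, and a cell can count under several genes.

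Capillary and venous lists had medians of 0.11 and 0.33 on the log2 scale, against -0.71 for the arterial list. Over all measured genes of the strict set 3.84% were higher and 6.89% lower, the background for each count in this paragraph. Of 6 capillary genes Rgcc was higher (513.6 against 341.6 CPM) and Btnl9 lower, and Aplnr, the apelin receptor, was 1.37-fold higher (564.7 against 411.8 CPM). Of 12 venous genes Selp was higher and Vcam1 lower, with the venous regulator Nr2f2 at 299.8 against 201.2 CPM. Genes of an endothelial to mesenchymal transition did not move together: of 13 measured, Snai2 was higher (35.6 against 21.3 CPM) and Fn1 lower (194.4 against 293.8 CPM), Vim stood at 9067 against 12816 CPM, and Acta2 and Tagln at 20.1 against 27.0 and 16.3 against 15.6 CPM. The VEGF receptors Kdr (577.1 against 559.0 CPM) and Flt1 (967.6 against 877.7 CPM) and the angiopoietin receptor Tek (298.2 against 247.5 CPM) lay less than 1.5-fold apart. Of 15 proliferation genes 0 were higher and 2 lower, beside 6.89% of all genes lower, with Mki67 at 31.8 against 54.1 CPM. Cells with at least 2 UMIs of 6 cycling genes made up 22.8% of labelled and 16.8% of unlabelled cells, and 8.77% and 13.1% after thinning, an order that turned with depth.

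**Figure D5:**
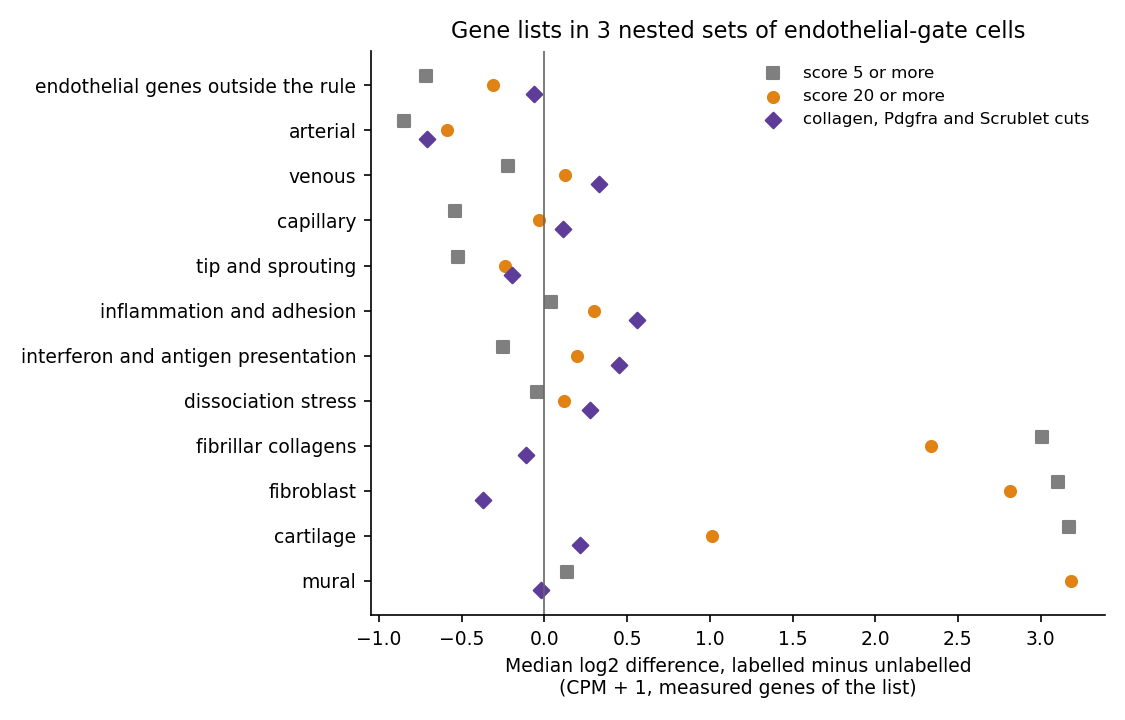
Median log2 difference (labelled minus unlabelled, CPM + 1) over the measured genes of 12 lists in 3 nested sets, the whole gate, cells with a score of 20 or more, and the strict set. Fibrillar collagen, fibroblast, cartilage and mural medians lie between -0.37 and 0.21 in the strict set, and the arterial median is -0.85, -0.59 and -0.71 across the sets.

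The Lmx1b endothelium under the same limits (444 cells) was read for the genes of the strict set. For Igfbp3 it held 1613 CPM, for Kcnn4 42.5 CPM, for Sema3g 56.6 CPM, for Gja1 157.2 CPM and for Iigp1 60.2 CPM. Of the 10 lower genes 7 were nearer in ratio to the unlabelled than to the labelled cells, and of the 10 higher genes likewise 7. The exceptions were Cxcl12 (453.1 CPM), Gja4 (105.0 CPM) and Atp13a3 (47.1 CPM) on the lower side and Fmo2, Slc39a8 and Phlda1 on the higher side. Zfp36, at 100.5 CPM, lay below both groups and was counted as nearer to the unlabelled. Mouse line and library cannot be told apart here, so these levels are set side by side without a test.

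The mural class, which also had a labelled cloud, gave other values for the same genes. In 88 labelled and 128 unlabelled mural cells, all without a Pdgfra UMI by definition, Igfbp3 stood at 27.6 and 24.9 CPM and Gja4 at 69.2 and 85.3 CPM. Cxcl12 was higher in labelled mural cells, at 232.7 against 61.6 CPM, the opposite of its direction in the strict set, and Iigp1 was also higher, at 30.1 against 12.4 CPM. In mesenchymal cells Cxcl12 was likewise higher with the label, at 223.4 against 27.2 CPM. The strict set's collagen limit was not set for mural cells, whose Col1a1 stood at 11583 and 12414 CPM. The part of mesenchymal RNA in the mural values was not tested.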

How the data were processed

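Per the file headers, the authors' matrices of UMI counts are Cell Ranger 4.0.0 output, deposited without normalization. The reference was mm10 with an added tdTomato, per the labels' protocols. How barcodes were filtered before deposit is not given in the sources used here. The 2 libraries held 49084751 (Pdgfra) and 66867027 (Lmx1b) UMIs over 5032 and 5991 barcodes, with 10 barcode sequences in common and 0 of them among the endothelial cells.

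Counts were read in python 3.11.15 with numpy 2.4.6, scipy 1.17.1 and pandas 2.3.3. UMIs were summed over the cells of a group and given as CPM, and ratios carry exact conditional 95% intervals. Their code was tested on simulated independent Poisson counts, the model that the intervals assume. That test does not cover genes whose UMIs lie in few cells. No p-value was made from cells. Log2 differences used a pseudocount of 1 CPM, and genes needed 10 CPM over both groups to be measured. Doublets were scored with Scrublet in scanpy 1.11.5. Its automatic threshold marked 0 barcodes and so had not worked, and the highest 0.8% per 1000 barcodes (203) were used instead. Scores were made over all 5032 deposited barcodes of the Pdgfra library. Of the 203 only 42 were among the 1612 cells past the filters, so the doublet limit removed few of the compared cells. The processing alternatives tried changed the cell filters, the gate, the tdTomato thresholds, the doublet and carry-over limits, the summing, thinning, scaling and expression minimum. Of the genes past 1.5-fold in the summed and the per-cell mean CPM, with a UMI in at least 10% of cells of the higher group, the text names 15 each way in the whole gate and 10 each way in the strict set, ranked by the interval bound nearest 1. Genes of the gate, mitochondrial, Gm and Rik genes and tdTomato were left out. Members of 32 gene lists may be named too. Cells and lists were chosen with earlier results of these data known. Of the listed genes 1, Ccl21a, shares its symbol between several identifiers and was left out of its list. Figures were drawn with matplotlib 3.10.9.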

Additional observations from a re-analysis of the deposited data

How the results depend on the processing

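Each value below is for labelled minus unlabelled cells of the whole gate unless stated. The log2 difference of the summed fibrillar collagens, 3.24 as reported, was 3.05 under a looser cell filter (200 genes, 25% mitochondrial UMIs), 2.71 under a stricter one (1000 genes, 5%), 3.31 from 6000 UMIs, 3.94 and 2.77 with a score of at least 10 and 20, 2.13 with labelled cells from 3200 CPM, 3.13 with unlabelled cells below 400 CPM, 1.37 with 1 threshold at 1600 CPM, 2.96 without the highest Scrublet scores, 0.54 without cells with a Pdgfra UMI, 4.21 without mural-positive cells, 4.23 in cells with Gpihbp1 or Aplnr, 1.36 in cells without, 1.96 as a mean of cells, 1.97 after thinning and 3.36 after median scaling. It reversed to -0.13 with the collagen limit and to -0.15 in the strict set, where the limit itself bounds collagen. The labelled share of 39.1% was 33.8% from a score of 20, 30.4% from 3200 CPM, 34.3% with the collagen limit and 34.2% without mural-positive cells. The 742 higher genes became 1573 with 1000 genes and 5%, 344 without Pdgfra-positive cells, 316 with the collagen limit, 320 in the strict set, 1175 thinned, 1495 from 2 CPM and 223 from 50 CPM. The 724 lower genes became 1836 with 1000 genes and 5%, 376 from a score of 20, 413 from 3200 CPM, 408 with 1 threshold, 332 without Pdgfra-positive cells, 1205 without Gpihbp1 and Aplnr, 462 as a mean of cells, 1261 thinned, 1284 from 2 CPM, 261 from 50 CPM and 394 scaled.

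Of 694 list medians 607 stayed on their side of 1.5-fold and 14 reversed. The epithelial median reversed to -0.31 (1000 genes and 5%), -0.25 (1 threshold) and -0.64 (no Gpihbp1 or Aplnr). With the collagen limit, medians were 0.10 for the gate genes, -0.088 for fibrillar collagens, -0.33 for fibroblast, -0.058 for bone and -0.37 for limb patterning genes, and in the strict set 0.074, -0.11, -0.37, -0.093 and -0.47, with erythroid genes at 0.016. Among genes named in the whole gate, the collagen limit reversed C1qtnf3 (-1.04), Ogn (-0.055), Lum (-0.040), Col1a1 (-0.19) and Hbb-bs (0.053). The strict set reversed C1qtnf3 (-1.02), Mfap4 (-0.12), Ogn (-0.27), Lum (-0.15), Col1a1 (-0.21), Chad (-0.12), Hba-a2 (0.072) and Hbb-bs (0.016). Cd74 reversed from 6000 UMIs (0.12), from scores of 10 (0.0054) and 20 (0.48), below 400 CPM (0.29) and with Gpihbp1 or Aplnr (0.13). Single reversals were Hba-a2 with 1000 genes and 5% (0.30), Chad from a score of 20 (-0.32), Tnn without Pdgfra-positive cells (-0.079), Hba-a1 without Gpihbp1 and Aplnr (0.22) and Dbndd2 thinned (0.025).

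In the strict set, the limit of 1000 genes and 5% left 10 labelled and 18 unlabelled cells and reversed Fmo2 (-0.94), Slc39a8 (-0.40), Phlda1 (-1.40), Gja4 (0.92), Cxcl12 (0.76), Sema3g (0.21) and Atp13a3 (1.06). Gja4 also reversed in the 7 and 14 cells without Gpihbp1 and Aplnr (0.062). The cause of these changes was not tested. The alternative without each gene's 3 highest cells was chosen after seeing the data. No paired analysis was possible because each line has 1 library. Depth limits single-cell shares of genes under about 20 CPM, which fall to a few cells after thinning.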

Other observations

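Sex-linked transcripts gave a view of the animals behind the cells that the labels did not state. Among endothelial cells with a score of 20 or more, 6 unlabelled and 0 labelled cells held at least 3 UMIs of Xist, the RNA of the inactive X chromosome, and 0 of Y-linked genes, while 250 of the 305 held a Y-linked UMI. The 6 cells held 4 to 15 Xist UMIs each. Over the Pdgfra library 30 of 1612 cells had this Xist pattern, 1 of 571 mesenchymal and 6 of 231 mural cells among them. In the Lmx1b library 98 of 2325 cells had it, and 50 of 601 endothelial cells. Leaving out cells with an Xist UMI left the summed collagen difference at 3.25 on the log2 scale, beside 3.24 with them.

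Haemoglobin transcripts, made by red blood cells, were at the same level in the strict set (97.6 against 99.3 CPM for the erythroid list). Macrophage genes there summed to 128 and 102 CPM, with 2 of 4 measured genes higher in labelled cells and 0 lower, beside 3.84% of all genes higher. Of genes for PDGF signalling, the receptor Pdgfrb stood at 17.8 against 6.76 CPM and the ligands Pdgfa at 71.3 against 111 CPM and Pdgfb at 168 against 230 CPM. Bmp2, a bone morphogenetic protein made by endothelium, stood at 77.5 against 152 CPM.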
